A study of Rattus norvegicus with 9 samples.

Results

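Gfap and 7 genes of Schwann cells, Mbp, S100b, Ngfr, Prx, Pmp22, Mag and Sox10, were followed through 9 mRNA-seq libraries of rat bone. They are 8 of the 23026 genes in the deposited tables. All 8 were matched by symbol. Gfap was selected on its values in these same libraries, since it differed between the groups in them, and the other 7 were chosen from general knowledge of Schwann cells with earlier results of these data known. Changes in Gfap are therefore given as a description with no test.

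The study asked whether astragaloside IV (AS-IV), a saponin of Astragalus root, alters bone after loss of the ovaries, a common model of postmenopausal osteoporosis. All animals were female Sprague-Dawley rats, bought at 8 weeks of age. The Sham group had fat beside the ovary taken out with the ovaries left in place, the OVX group had both ovaries removed, and the OVX-AS-IV-High group had both ovaries removed and then received AS-IV at 80 mg/kg by gavage for 8 weeks, starting 6 weeks after surgery. The labels give the OVX libraries 1% sodium carboxymethyl cellulose as vehicle and the Sham libraries 1%, 2% and 3% for replicates 1, 2 and 3, and name no vehicle for OVX-AS-IV-High. The study's methods give 1% for both the Sham and the OVX animals and as the solvent of AS-IV, so the labels of Sham replicates 2 and 3 differ from the methods. The OVX-AS-IV-High group is called the treated group hereafter. Each group had 3 libraries, described in the methods as independent biological replicates, and the tissue is labelled only as bone.

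Schwann cells are the glia of peripheral nerves. Myelinating Schwann cells wrap single large axons in a sheath built from proteins such as Pmp22, Mbp and periaxin, while non-myelinating Schwann cells ensheath bundles of thin axons and carry Gfap, Ngfr and Ncam1. Nerves run along the vessels of bone and marrow, and non-myelinating Schwann cells of the marrow have been described as part of the niche of blood stem cells. Gfap, glial fibrillary acidic protein, is an intermediate filament protein best known from astrocytes of the brain and is also found in some cells outside the nervous system.

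The promoter of Gfap is shown because Gfap is the gene whose level varied most among the 7 members tested. It spans chr10:88361612-88361911 on the minus strand of GRCr8, from RefSeq, and reads 5′ to 3′ with the last 50 bases, those after the start of transcription, in capitals.
Gfap promoter: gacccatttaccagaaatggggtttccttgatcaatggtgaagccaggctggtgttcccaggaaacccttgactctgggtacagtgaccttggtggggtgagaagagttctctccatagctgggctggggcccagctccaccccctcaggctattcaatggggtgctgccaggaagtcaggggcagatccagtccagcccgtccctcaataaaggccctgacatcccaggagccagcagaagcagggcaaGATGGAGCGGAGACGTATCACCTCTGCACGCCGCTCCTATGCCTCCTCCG
Its GC content was 58.7%. RefSeq promoters of 300 bases were matched for 6 of the 8 genes, with 2 starts for Mbp, while Ngfr and Sox10 had no entry. The STAT motif TTCNNNGAA, searched on both strands, had no match in the 7 promoters and occurred in 8.87% of 33469 promoters. The SOX motif ACAAAG occurred in 18.8% of all promoters and matched the promoter of Mag and 1 of the 2 promoters of Mbp. These matches describe letters only.

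Total counts per library ranged from 34874880 to 37298250. CPM denotes counts scaled to library size with TMM factors, and FPKM denotes fragments scaled to library size and transcript length, so that levels of different genes can be compared in FPKM. A gene was called where edgeR's unadjusted p was under 0.05 and the absolute log2 fold change (log2FC) was over 1, the thresholds given with the study's results. The methods give 0.58 in place of 1. By this rule 525 of 16874 genes tested (3.11%) were called in OVX vs. Sham and 140 (0.83%) in the comparison of the treated with the OVX group, written as treated vs. OVX. At 0.58 the counts were 1174 (6.96%) and 369 (2.19%). No gene had an edgeR adjusted p under 0.05 in either comparison (0.0%), while 2775 and 1089 genes had an unadjusted p under 0.05, and DESeq2 gave 790 and 26 genes with an adjusted p under 0.05. The libraries of the groups did not overlap for 23.3% and 12.7% of genes tested. The comparisons share the OVX libraries, so their values are given side by side and not as separate evidence. In bulk bone RNA, fewer Schwann cells and less RNA per cell cannot be told apart.

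The 8 genes spanned a wide range of levels. By median FPKM over the 9 libraries, S100b stood at 30.8, Pmp22 at 21.1, Mbp at 6.36, Prx at 1.01, Gfap at 0.871, Ngfr at 0.189, Sox10 at 0.0785 and Mag at 0.0201. Each gene was above the next in this order in all 9 libraries, except that Prx exceeded Gfap in 6 of 9 and Ngfr exceeded Sox10 in 8 of 9. Prx and Gfap, and Ngfr and Sox10, were therefore not separated beyond their spread over libraries. The genes most restricted to Schwann cells were the least abundant. Sox10 had 83 counts over all libraries and Mag had 16, whereas the abundant S100b, Pmp22 and Mbp are also made by other cells, S100b by chondrocytes and adipocytes, Pmp22 by fibroblasts and Mbp, through its golli transcripts, by blood cells. The name Schwann cell genes is thus a name for the list, and the bulk level of its abundant members cannot be assigned to Schwann cells.

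**Figure D1:**
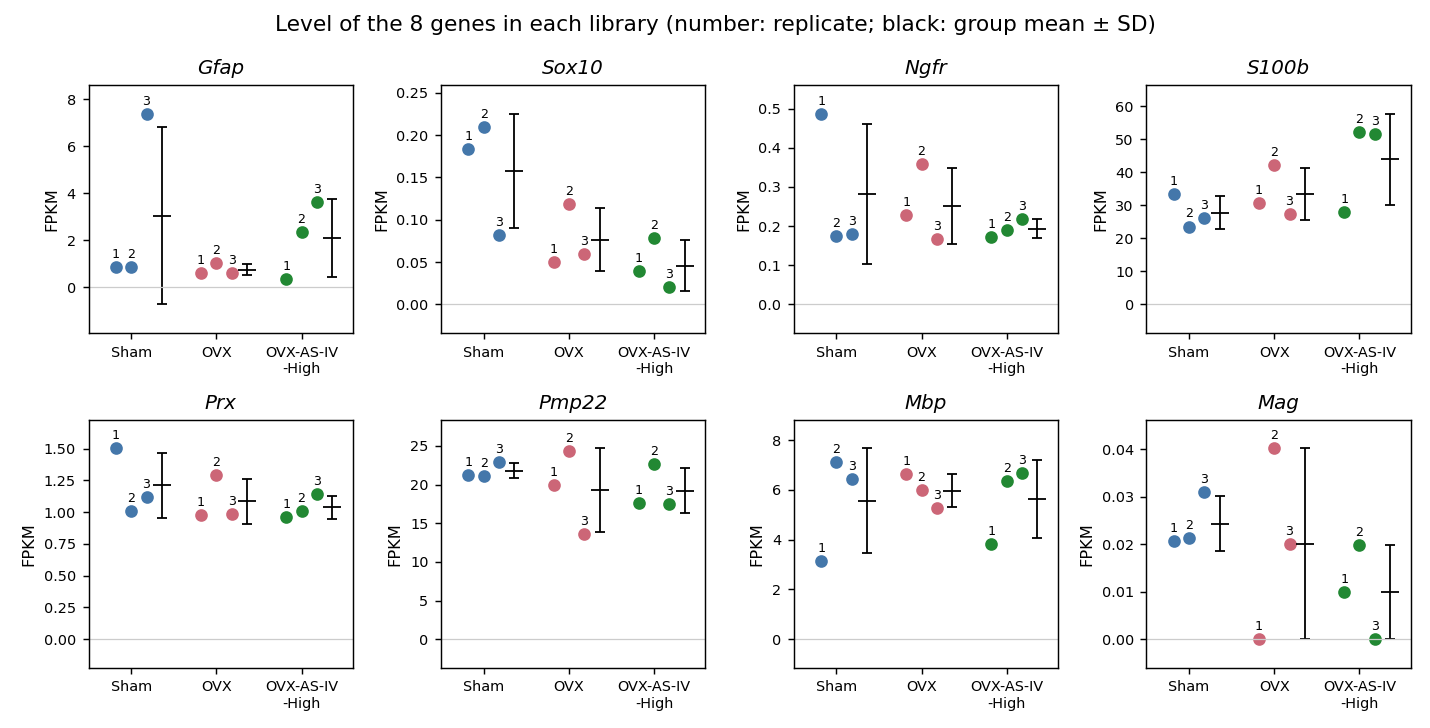
FPKM (vertical axis, grey line at 0, a separate scale for each gene) of the 8 genes in the 9 libraries, with points coloured by group and numbered by replicate, and black bars for the group mean ± SD (n = 3). Gfap reached 7.40 in Sham replicate 3, and its other Sham libraries lay within the span of the OVX libraries.

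Gfap was uneven within groups. The Sham libraries held 105, 102 and 890 counts for replicates 1, 2 and 3, the order used for all genes. The OVX libraries held 73, 127 and 77 counts. The treated libraries held 45, 293 and 443 counts. Sham replicate 3 alone was high among the Sham libraries, treated replicates 2 and 3 were high in their group, and the lowest of all libraries was treated replicate 1. The OVX libraries overlapped those of each other group, since 127 counts in OVX replicate 2 exceeded the 105 and 102 of the first Sham libraries and the 45 of treated replicate 1.

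Mean Gfap was 10.3 ± 12.8 CPM in Sham, 2.48 ± 0.758 CPM in OVX and 7.11 ± 5.51 CPM after treatment (SD, n = 3 each). The log2FC fitted by edgeR was -2.06 (standard error 0.96) in OVX vs. Sham and 1.52 (0.95) in treated vs. OVX. Without Sham replicate 3, the OVX vs. Sham value came to -0.24. Leaving out any other single library kept it between -2.50 and -1.92. For treated vs. OVX, the value ranged from 0.89 without treated replicate 3 to 2.02 without treated replicate 1. With the replicate number as a block over these 2 groups it was 1.12. The highest library held 20.2 times the CPM of the lowest. The SD of log2 CPM over all libraries, 1.39, was higher than that of 98.4% of genes tested, and the biological coefficient of variation was 0.749 against 0.305 for the trend of genes of this abundance.

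**Figure D2:**
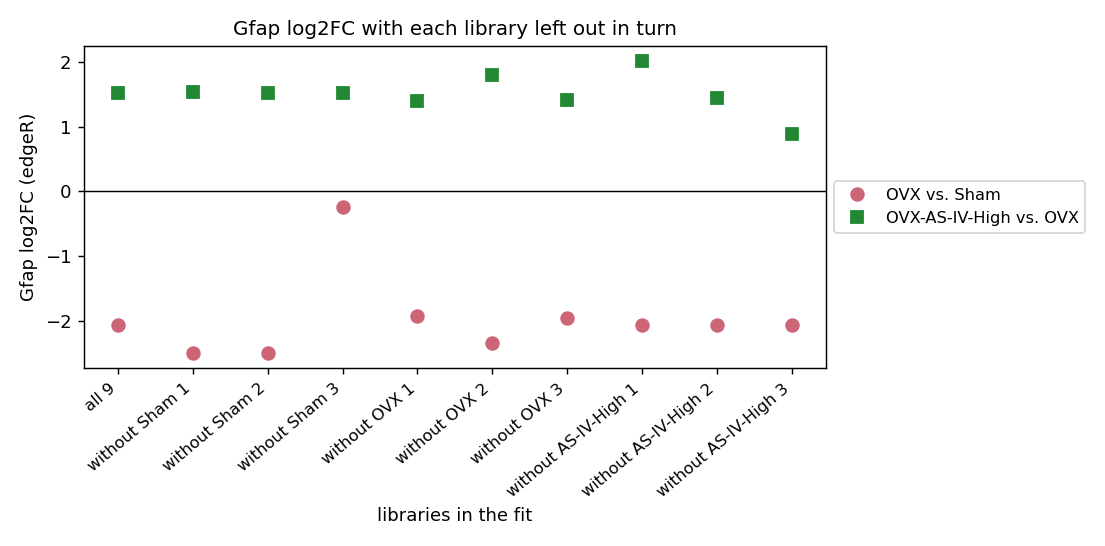
Gfap log2FC from edgeR (vertical axis) with all 9 libraries and with 1 library at a time left out (horizontal axis), as circles for OVX vs. Sham and squares for treated vs. OVX (AS-IV-High in the plot). The circle without Sham replicate 3 stands apart at -0.24, and all squares lie above 0, between 0.89 and 2.02.

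The libraries with high Gfap were not those with a high mean of the other 7 genes. Centred on its mean over libraries, Gfap log2 CPM was 2.57 in Sham replicate 3, 1.54 in treated replicate 3 and 0.92 in treated replicate 2, the 3 highest libraries. The mean of the 7 Schwann cell genes, each centred in the same way, was 0.06, -0.20 and 0.13 there. That mean was highest in OVX replicate 2, at 0.37, and Sham replicate 1, at 0.26, where Gfap stood at -0.31 and -0.52. Treated replicate 1 was lowest for both, at -1.71 for Gfap and -0.33 for the 7-gene mean. The 3 libraries with the most Gfap thus ranked 5, 6 and 4 of 9 by the mean of the Schwann cell genes. The 7 genes did not move as a set, since r among them ran from -0.55 for Mbp and Ngfr to 0.90 for Ngfr and Prx. Sox10 and Mag, with 2 to 20 and 0 to 4 counts per library, varied most of the 7 (SD of log2 CPM 0.82 and 0.54). Their mean is therefore no measure of the amount of Schwann cells.

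**Figure D3:**
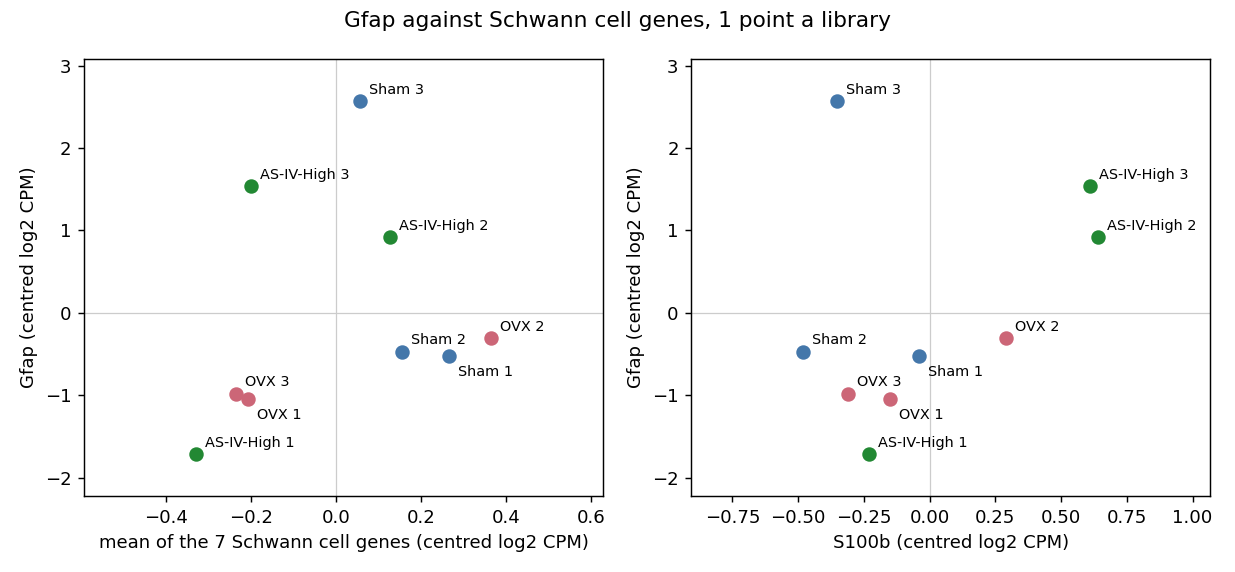
Gfap (vertical axis) against the mean of the 7 Schwann cell genes (left) and S100b (right), both as log2 CPM minus the gene's mean over libraries, with 1 point a library coloured by group. Sham replicate 3 lies at 2.57 for Gfap with a 7-gene mean of 0.06 and with S100b at -0.35.

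Over the 9 libraries, Gfap and the mean of the 7 genes had a Pearson r of 0.23 and a Spearman rho of 0.47, as a description with no p. Without OVX replicate 2 and treated replicate 1, the libraries farthest from the median of the 7-gene mean, r was 0.11. Without Sham replicate 3 it was 0.24, and without treated replicate 1 it was -0.001. With the mean of the myelin gene Prx and the transcription factor Sox10 in place of the 7 genes, r was -0.06. The points share depth and the makeup of each bone sample.

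Taken gene by gene, Pearson r with Gfap was 0.46 for Mbp, 0.37 for Pmp22, 0.35 for S100b, 0.19 for Prx, 0.15 for Mag and -0.12 for both Ngfr and Sox10. No pair with Gfap passed 0.5. Of the 28 pairs among the 8 genes, those with Gfap included, 3 passed it. Of 16873 genes, 1798 had an r over 0.5 with Gfap, so the few pairs with Gfap cannot be set apart from all genes. For 90% of all genes tested, r with Gfap lay between -0.63 and 0.60. Among 19 other Schwann cell genes tested, r with Gfap ran from -0.63 for Fa2h to 0.80 for Gldn, which held 1 to 46 counts per library, and Drp2 and Matn2, each at 0.51, also passed 0.5. Without Sham replicate 3, Scn7a at 0.80, Ncam1 at 0.71 and Gldn at 0.66 did. The mean of these genes had an r of 0.40 with Gfap. For the lists of other cells described further below, the same measure ran from -0.62 for astrocyte genes to 0.70 for 3 melanocyte genes. It was 0.63 for chondrocyte, 0.60 for erythroid, -0.60 for skeletal muscle and -0.61 for neutrophil genes. The value of 0.40 thus lies within the range of lists of other cells. These values rest on few libraries. For S100b, r was 0.84 without Sham replicate 3 and -0.16 without treated replicates 2 and 3, and for Prx it was 0.88 without Sham replicate 1 and OVX replicate 2. The ratio of Gfap to Prx in FPKM ran from 0.371 in treated replicate 1 to 6.63 in Sham replicate 3, a span of 17.9-fold, and that of Gfap to S100b spanned 22.0-fold, near the 20.2-fold span of Gfap itself.

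**Figure D4:**
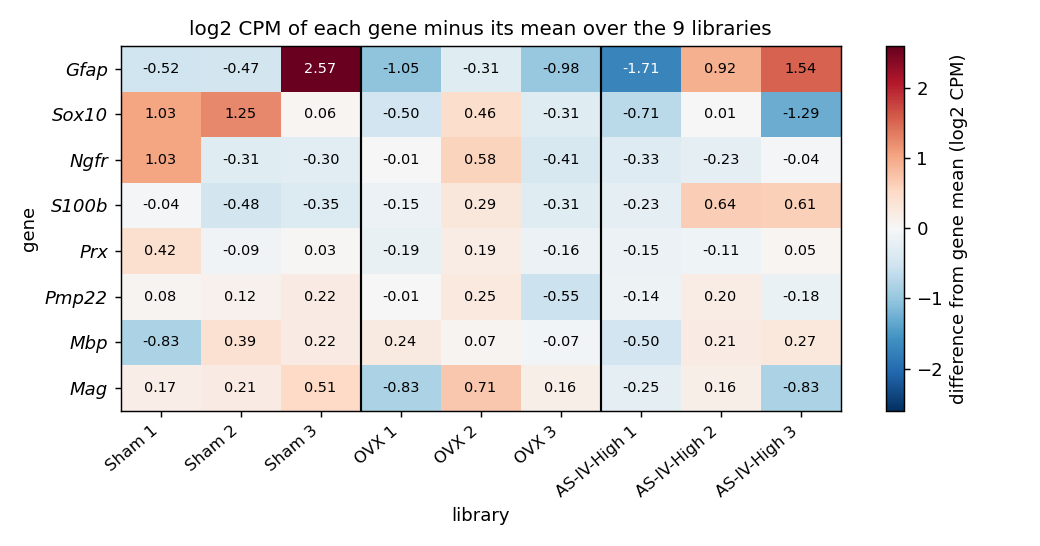
log2 CPM of each of the 8 genes (rows) minus its mean over the 9 libraries (columns), with values printed, red above and blue below the mean, and lines between groups. Gfap runs from -1.71 to 2.57, while Prx stays between -0.19 and 0.42.

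Sox10, the transcription factor that Schwann cells need from their origin onwards, held 18, 20 and 8 counts in Sham. It held 5, 12 and 6 counts in OVX. It held 4, 8 and 2 counts in the treated group. The counts in Sham replicates 1 and 2 were the highest, yet Sham replicate 3 lay below OVX replicate 2, so the groups overlapped. Mean Sox10 was 0.435 ± 0.188 CPM in Sham, 0.205 ± 0.0973 CPM in OVX and 0.127 ± 0.0822 CPM after treatment (SD, n = 3 each). The log2FC was -1.07 (standard error 0.61, edgeR adjusted p = 0.390) in OVX vs. Sham and -0.68 (0.68, adjusted p = 0.945) in treated vs. OVX. Sham replicate 3, the library richest in Gfap, had the lowest Sox10 of its group, and treated replicate 3, next in Gfap, had the lowest Sox10 of all. With 2 to 20 counts per library, neither difference passed the test at this depth. At each replicate number the treated library was lower than the OVX library, with 5 and 4, 12 and 8, and 6 and 2 counts. The numbers are not known to mark pairs. The 8 counts of treated replicate 2 exceeded the 5 and 6 of OVX replicates 1 and 3. With the replicate number as a block the log2FC was -0.73 (standard error 0.58, edgeR adjusted p = 0.789), which did not change the call.

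Ngfr, the p75 neurotrophin receptor of non-myelinating and repair Schwann cells and of some stromal cells, held 57, 20 and 21 counts (Sham), 27, 43 and 20 counts (OVX) and 21, 23 and 26 counts (treated). Sham replicate 1 and OVX replicate 2 were high and the other 7 libraries lay within 20 to 27 counts. Its log2FC was -0.19 (standard error 0.48, edgeR adjusted p = 0.862) and -0.33 (0.48, adjusted p = 0.953) in the 2 comparisons. Ngfr and Prx had the highest correlation of any pair of the 8 genes, with an r of 0.90.

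S100b, a calcium-binding protein of Schwann cells, cartilage and fat, held 1956, 1348 and 1540 counts in Sham. It held 1829, 2552 and 1644 counts in OVX. It held 1714, 3187 and 3073 counts in the treated group. Treated replicates 2 and 3 were above every other library, and replicate 1 lay within the range of the OVX libraries. The log2FC was 0.24 (standard error 0.24, edgeR adjusted p = 0.619) in OVX vs. Sham and 0.43 (0.24, adjusted p = 0.861) in treated vs. OVX. The summed FPKM of 8 adipocyte genes was 539, 567 and 766 (Sham), 745, 1003 and 973 (OVX) and 625, 957 and 944 (treated). Their mean log2 CPM, each gene centred over libraries, was -0.97, -0.79 and -0.33 (Sham), 0.04, 0.71 and 0.23 (OVX) and -0.19, 0.61 and 0.68 (treated). The 2 measures thus order OVX replicate 3 and treated replicates 2 and 3 differently. The summed FPKM of 8 chondrocyte genes in the treated libraries was 220, 469 and 368. The part of these cells in the S100b values was not tested.

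Prx, periaxin, a scaffold protein of the myelinating Schwann cell, had the smallest span of the 7 genes tested. It held 278, 182 and 206 counts (Sham), 183, 246 and 187 counts (OVX) and 186, 194 and 214 counts (treated), a 1.53-fold span of CPM. Only Sham replicate 1 and OVX replicate 2 stood above the rest, as for Ngfr. The log2FC was -0.18 (standard error 0.20, edgeR adjusted p = 0.655) and -0.03 (0.20, adjusted p = 0.996). Prx is also made by endothelium.

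Pmp22, a membrane protein of compact myelin, held 1638, 1582 and 1756 counts (Sham), 1556, 1923 and 1071 counts (OVX) and 1406, 1805 and 1367 counts (treated). OVX held both the highest and the lowest library. The log2FC was -0.21 (standard error 0.19, edgeR adjusted p = 0.588) and 0.03 (0.19, adjusted p = 0.995). Mbp, myelin basic protein, held 408, 895 and 829 counts (Sham), 869, 798 and 703 counts (OVX) and 514, 855 and 878 counts (treated). Replicate 1 was low in Sham and in the treated group, and the groups overlapped. The log2FC was 0.07 (standard error 0.30, edgeR adjusted p = 0.924) and -0.05 (0.30, adjusted p = 0.995).

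Mag, the myelin-associated glycoprotein of the inner myelin layer, held 2, 2 and 3 counts (Sham), 0, 4 and 2 counts (OVX) and 1, 2 and 0 counts (treated). It was below the filter on low counts and was not tested. A difference between groups was not detectable at this depth.

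Gfap was left out of the count of calls, since it was selected on these libraries. None of the 6 other genes with enough counts to be tested was called by edgeR in either comparison, beside 3.11% and 0.83% of all genes tested. At an edgeR unadjusted p under 0.05 there were 0 of the 6, beside 2775 and 1089 of all 16874 genes tested. With 6 genes, a departure from these shares cannot be seen. DESeq2 called 0 of the 7 genes other than Gfap and gave 0 with an unadjusted or adjusted p under 0.05. Of all 22999 genes with a DESeq2 p, 682 and 195 were called in the 2 comparisons. An unadjusted DESeq2 p under 0.05 was found for 3195 and 1269 of them, and an adjusted one for 790 and 26. The median log2FC of the 6 genes was -0.18 and -0.04, beside -0.01 and -0.02 for all genes tested. The libraries of the groups overlapped for all 8 genes in both comparisons, while 23.3% and 12.7% of all genes tested had groups that did not overlap.

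**Figure D5:**
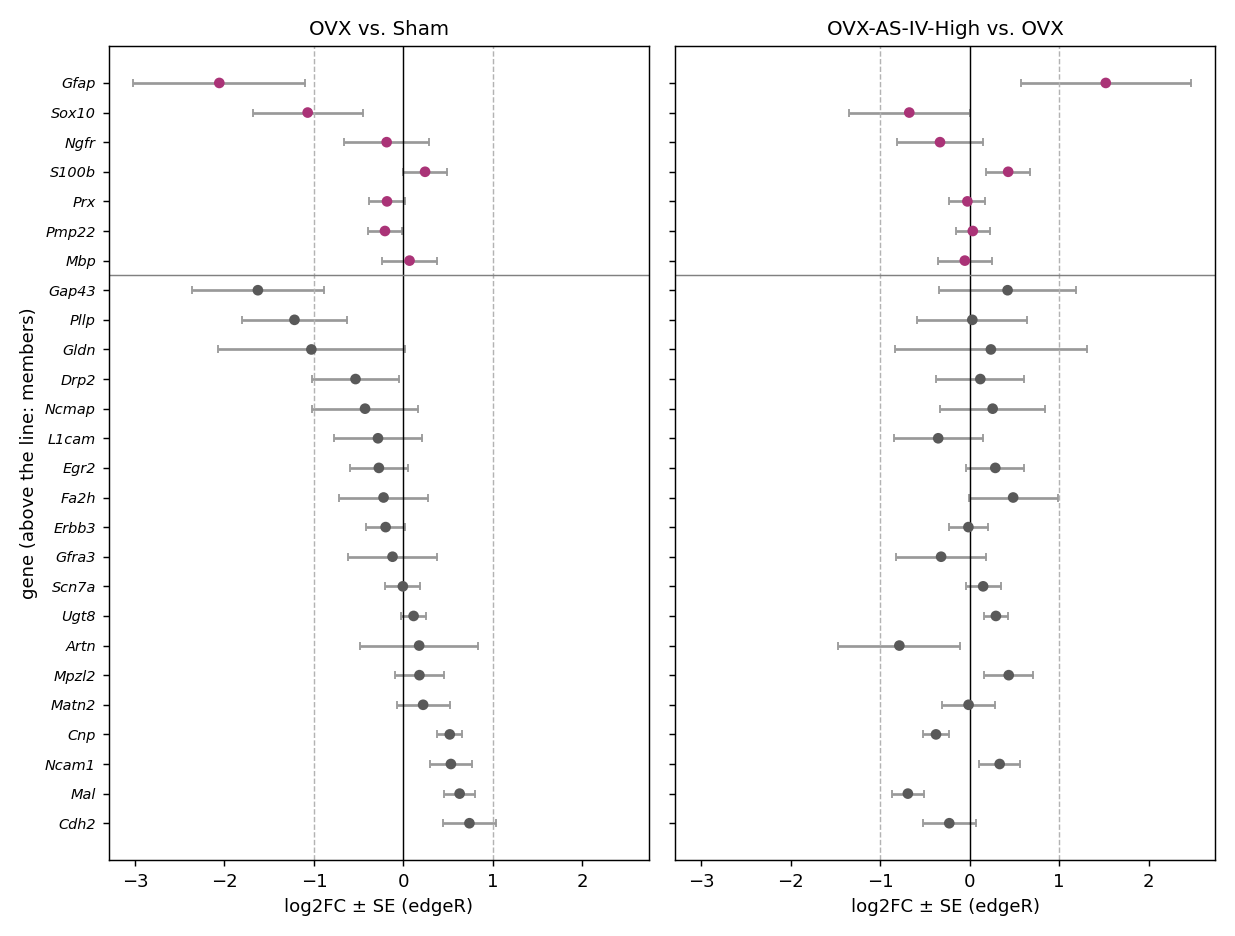
log2FC ± standard error from edgeR (horizontal axis) for the 7 members tested, above the line, and 19 other Schwann cell genes, below it, in OVX vs. Sham (left) and treated vs. OVX (right, named there by its full label), with dashed lines at -1 and 1. Gfap lies at -2.06 and 1.52, and Sox10 at -1.07 and -0.68.

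Of 30 other Schwann cell genes reported here, 19 were tested. By edgeR 0 were called in OVX vs. Sham, with a median log2FC of -0.12 and 4 genes, Cdh2, Cnp, Mal and Ncam1, at an unadjusted p under 0.05. DESeq2 also called 0 of them by the study's thresholds, and gave 2, Cnp and Mal, with an adjusted p under 0.05. In treated vs. OVX 0 were called, with a median log2FC of 0.12, 2 at an unadjusted p under 0.05 in edgeR and in DESeq2, and 0 at a DESeq2 adjusted p under 0.05. The libraries did not overlap for 4 of the 19 genes in OVX vs. Sham, 3 higher and 1 lower. They did not overlap for 1 higher and 2 lower in treated vs. OVX. The shares of all genes tested were 23.3% and 12.7%, so genes named below for this trait are no result about the list.

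Of the 10 myelin genes tested among these, 6 had a negative and 4 a positive log2FC in OVX vs. Sham. Cnp, a myelin enzyme also present in many other cells, and Mal, a proteolipid of myelin and T cells, were higher in every OVX library than in every Sham and every treated library. Cnp stood at 84.3 ± 14.1, 121 ± 7.13 and 93.0 ± 12.9 CPM in Sham, OVX and the treated group, with a log2FC of 0.52 (standard error 0.14, edgeR adjusted p = 0.161) in OVX vs. Sham. Mal stood at 10.2 ± 1.81, 15.8 ± 2.45 and 9.75 ± 0.990 CPM, with a log2FC of 0.63 (0.18, adjusted p = 0.167). Neither reached an absolute log2FC of 1. At the 0.58 of the methods, 2 of the 19 genes, Cdh2 and Mal, were called higher in OVX vs. Sham, and 1, Mal, was called lower in treated vs. OVX, with a log2FC of -0.69 (0.18, adjusted p = 0.652). Ugt8, the galactosyltransferase of myelin lipids, gave 0.11 (0.14, adjusted p = 0.680) and 0.29 (0.14, adjusted p = 0.791). Gjb1, Cldn19 and Pmp2 were below the filter, with at most 2, 11 and 1 counts in a library.

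Of the genes of immature, non-myelinating and repair Schwann cells, 9 of 17 were tested and 0 were called in either comparison. Matn2, Cdh2 and Ncam1 were the most abundant. Cdh2, an adhesion protein of immature Schwann cells and of osteoblasts, was higher in every OVX than in every Sham library, with a log2FC of 0.74 (standard error 0.30, edgeR adjusted p = 0.268). Ncam1, the neural adhesion protein of non-myelinating Schwann cells and of some other cells, gave 0.53 (0.23, adjusted p = 0.296), and Matn2 gave 0.22 (0.30, adjusted p = 0.716). Gap43, a growth-associated protein of axons and repair Schwann cells, held 2 to 21 counts per library and was lower in CPM in every OVX than in every Sham library, with a log2FC of -1.63 (0.73, adjusted p = 0.306). The summed FPKM of the 30 genes was 68.4 to 77.6 in Sham, 85.8 to 108 in OVX and 69.3 to 90.9 in the treated group, and Cnp alone had a mean of 40.6.

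Of 9 type III and IV intermediate filament genes related to Gfap, 5 were tested. In OVX vs. Sham 1 was called lower and 0 higher, with a median log2FC of -1.38. In treated vs. OVX 0 were called, with a median of 0.11. The called gene was Nes, nestin, a filament protein of progenitor and perivascular cells and of muscle, which stood at 13.2 ± 6.16 CPM in Sham and 4.22 ± 2.04 in OVX, with a log2FC of -1.65 (standard error 0.55, edgeR adjusted p = 0.206), and was not called without OVX replicate 3. Vim, vimentin, the filament of mesenchymal cells and of Schwann cells, gave 0.29 (0.16, adjusted p = 0.373) and -0.24 (0.16, adjusted p = 0.904). Des, the filament of muscle, gave -1.65 (0.79, adjusted p = 0.333) and 0.11 (0.78, adjusted p = 0.996).

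Receptors and ligands that link axons and Schwann cells were counted too. Of 10 neuregulin and neurotrophin genes, 9 were tested, 2 were called lower in OVX vs. Sham and 0 in treated vs. OVX, with medians of -0.22 and 0.24. Both were neurotrophin receptors. Ntrk3, the receptor of neurotrophin NT-3, stood at 7.50 ± 2.74 CPM in Sham, 2.74 ± 0.644 in OVX and 3.33 ± 1.13 in the treated group, with a log2FC of -1.45 (standard error 0.37, edgeR adjusted p = 0.151) in OVX vs. Sham. Ntrk2, the receptor of Bdnf, stood at 6.28 ± 0.826, 2.49 ± 0.719 and 2.95 ± 1.53 CPM, with a log2FC of -1.33 (0.40, adjusted p = 0.181). For both, every OVX library was below every Sham library, and the call held in all 9 fits that left out 1 library. Erbb3, the neuregulin receptor of Schwann cells, gave -0.20 (0.22, adjusted p = 0.652) and -0.01 (0.22, adjusted p = 0.997). Of 11 genes of axons and neurons in the tables, 5 were tested and 0 were called, with medians of -1.06 and 0.20, and Nefl and Nefm reached at most 7 counts in a library. Nefh reached 54, in OVX replicate 2, with 0 to 10 counts elsewhere.

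Markers of other cells were measured in the same libraries. Of 6 oligodendrocyte genes, Mog, Mobp, Opalin, Olig1 and Ermn reached at most 1 count in any library, and Cldn11 alone was tested, with 0 calls, so defining genes of central myelin were at or near 0. All 8 genes of an astrocyte list were tested. Slc1a2 was called lower in OVX vs. Sham, with a log2FC of -1.27 (standard error 0.47, edgeR adjusted p = 0.238), and was no longer called in 4 of the 9 fits that left out 1 library (Sham replicates 1 and 2, OVX replicates 1 and 2). Gja1, Fgfr3 and Slc1a3, the most abundant, are made by many cells of bone.

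The amount of muscle RNA differed widely between libraries. The summed FPKM of 13 skeletal muscle genes, led by Acta1, Tnnc2 and Ckm, was 5993, 3917 and 1102 (Sham), 2205, 1299 and 1133 (OVX) and 3055, 1468 and 388 (treated). Sham replicate 3 and treated replicate 3, the libraries with the most Gfap, had the least muscle RNA of their groups. All 13 were tested and 0 were called, with medians of -1.12 and 0.06. The summed FPKM of 8 chondrocyte genes, led by Col2a1, Comp and Col10a1, was 560, 312 and 762 (Sham), 161, 357 and 502 (OVX) and 220, 469 and 368 (treated), highest in Sham replicate 3. All 8 were tested and 0 were called, with medians of -0.65 and 0.08. Of 8 adipocyte genes, led by Fabp4, Cfd and Adipoq, 4 were called higher in OVX vs. Sham and 1 in treated vs. OVX, with medians of 0.85 and 0.09. Of 10 osteoblast genes, led by Bglap, Col1a1 and Col1a2, whose summed FPKM was at least 1490 in every library, 1 was called higher in OVX vs. Sham and 0 in treated vs. OVX, with medians of 0.38 and -0.26. Of 8 vessel genes, led by Rgs5, Acta2 and Pecam1, 3 were called lower in OVX vs. Sham and 0 in treated vs. OVX, with medians of -0.51 and -0.02. No gene was called in either comparison among 6 stromal, 3 melanocyte, 7 erythroid, 6 neutrophil and 5 B-lineage genes tested. The 5 B-lineage genes were all higher in every OVX than in every Sham library, with a median log2FC of 0.62, all with an edgeR unadjusted p under 0.05 and 4 with a DESeq2 adjusted p under 0.05. These lists, with those of axons, oligodendrocytes, muscle, cartilage and immature, non-myelinating and repair Schwann cells, make 10 lists and 63 genes tested. Over these 10 lists, 11 genes in OVX vs. Sham and 5 in treated vs. OVX had an edgeR unadjusted p under 0.05. Of all 16874 genes tested, 2775 and 1089 did. DESeq2 called 2 of the 63 genes, Acta1 and Uchl1, in OVX vs. Sham and 0 in treated vs. OVX, and gave 6 and 1 with an adjusted p under 0.05. Of all 22999 genes with a DESeq2 p, 682 and 195 were called, and 790 and 26 had an adjusted p under 0.05. The part of these cells in the levels of Gfap, Nes and the neurotrophin receptors was not tested.

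The genes most like Gfap were sought by Pearson r of log2 CPM over the 9 libraries. The 10 highest, from 0.962 down to 0.882, were Cyp4v3, Ins2, Aen, Eef1akmt4, Slc48a1, Foxred2, Pappa, Hsp90ab1, Ipo9 and Map1lc3b. The members were left out of this ranking and could not appear in it. None of the 19 other Schwann cell genes tested is among the 10. So few candidates among all genes tested make this absence uninformative. Cyp4v3, a fatty acid hydroxylase, held 1083, 1153 and 1653 counts (Sham), 1079, 1236 and 1163 counts (OVX) and 1032, 1569 and 1523 counts (treated). It was high in the same 3 libraries as Gfap, by less. The span of CPM between the highest and the lowest library was 1.18-fold to 2.02-fold for these 10 genes, against 20.2-fold for Gfap. Of 16873 genes, 86 had an r over 0.8 with Gfap.

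The genes most like the mean of the 7 Schwann cell genes, ranked in the same way with the members left out, were others. The 10 highest, from 0.970 down to 0.921, were Col18a1, Mxra7, Enho, Nxn, B3galnt1, Cep170b, Nectin2, Pcdh20, Sys1 and Plpp1. Col18a1, a collagen of vessel and nerve basement membranes, held 1169, 983 and 874 counts (Sham), 720, 1234 and 760 counts (OVX) and 604, 893 and 671 counts (treated). It was highest in OVX replicate 2 and Sham replicate 1, as the 7-gene mean was.

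Reads from neighbouring genes were checked for Gfap. No RefSeq gene overlaps Gfap, Ngfr or Sox10. Among the genes on either side of it in the tables, Ccdc103 held at most 1 count per library, Kif18b 2166 to 3857 counts and Eftud2 1826 to 3189 counts. Kif18b had an r of 0.45 with Gfap and Eftud2 had an r of 0.75, the highest of the 6 neighbours in the tables. The part of reads from these genes in the Gfap counts was not tested. Mbp, S100b, Prx, Pmp22 and Mag overlap other RefSeq genes, among them Dip2a for S100b, and their counts are uncertain to that extent.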

How the data were processed

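Poly(A) RNA of bone was sequenced as paired-end, strand-specific libraries per the labels. The authors aligned reads with Tophat/Bowtie2 and quantified genes with eXpress, and the submitters' processing notes name mRatBN7.2. They deposited a table of gene counts and a table of FPKM, 23026 genes each. The counts are whole numbers, and how the estimates became whole is not given in the sources used here.

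From the counts, edgeR 4.0.16 (TMM, filterByExpr with a minimum count of 10, quasi-likelihood test, all 9 libraries in 1 fit by group) was run on 16874 genes in R 4.3.3, with Benjamini-Hochberg adjustment over all of them. DESeq2 1.42.0 and limma 3.58.1 were alternatives. log2 CPM used a prior count of 2. The fits were tested on simulated data. The members and all lists were chosen with earlier results of these data known. Named genes are the 8 members, the 10 genes most like Gfap, the 10 most like the 7-gene mean, and list genes where counted, with at least the 3 of highest mean FPKM in each described list. Deviations of same-numbered OVX and OVX-AS-IV-High libraries from their group means had an r of 0.31, 0.158 and 0.13 for replicates 1, 2 and 3. Differently numbered libraries were not compared, so these values do not show that the numbers mark pairs. The main fits used no block, and fits with the replicate number as a block are given only as an alternative. The p-values set the difference between groups against the spread between these libraries, which is estimated in part from all genes. Some genes of the Schwann cell list are not reported here, and its counts cover the genes reported.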

Additional observations from a re-analysis of the deposited data

How the results depend on the processing

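Each library was left out in turn, and 7 to 9 other settings were tried for each result. The number of the 8 genes past the study's thresholds in OVX vs. Sham was 0, and 1 with DESeq2, with no filter on low counts or with only the 2 groups compared, and 0 to 1 with 1 library left out (1 without Sham replicate 1, Sham replicate 2 or OVX-AS-IV-High replicate 1). The gene was Gfap each time, which was selected on these libraries, so these counts describe the settings and are no test of Gfap. In OVX-AS-IV-High vs. OVX it was 0 under all 9 settings and 0 to 1 with 1 library left out (Gfap, without Sham replicate 3 or OVX-AS-IV-High replicate 1). For the other Schwann cell genes in OVX vs. Sham it was 0, and 1 (Gap43) with limma on log2(FPKM + 0.1), 1 with the replicate block, 1 with only the 2 groups compared, 2 (Cdh2 and Mal) with an absolute log2FC over 0.58, and 0 to 3 with 1 library left out, with 3 (Drp2, Gldn and Pllp) without OVX replicate 2 and 1 without Sham replicate 2, OVX replicate 1 or OVX-AS-IV-High replicate 3. In OVX-AS-IV-High vs. OVX it was 0, and 1 (Mal) with the threshold of 0.58. Gfap log2FC in OVX vs. Sham was -0.83 to -2.06 under other settings, -1.33 with the replicate block, and -2.50 to -0.24 with 1 library left out. In OVX-AS-IV-High vs. OVX it was 0.67 to 1.53, 0.96 with the block, and 0.89 to 2.02. The r of Gfap with the 7-gene mean was 0.017 to 0.467 with 7 other settings, 0.455 with the block, -0.064 with Prx and Sox10 in place of the 7 genes, and -0.001 to 0.409 with 1 library left out, where -0.001 (without OVX-AS-IV-High replicate 1) also turned its sign. Same-numbered Sham libraries had an r from -0.161 to 0.435 with those of the other groups. Whether replicate numbers mark pairs in any group is not known, and the block is only a number. The causes were not tested. The threshold of 0.58, the fit on only 2 groups under the block and 2 sets of genes for r were chosen after seeing the data. Low counts limit Sox10, Mag and Ngfr.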
